A study of Mus musculus with 9 samples.

Results

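The nuclear pore proteins, or nucleoporins, were followed at the level of their messenger RNA in mouse pancreatic islets. They were taken as every gene symbol made of Nup and a number, together with Nupl1, Nupl2, Pom121, Ndc1, Tpr, Rae1, Seh1l, Aaas, Ranbp2 and Gle1. That gave 29 of the 24393 genes with a usable symbol in the count table, and all 29 were also in the FPKM table and passed the filter on low counts. The islets, hand-picked from female mice and cultured overnight, are small endocrine organs made mostly of beta cells, the source of insulin. Knockout (KO) libraries, 4 in number, had the genotype Rip-cre; Ogt f/f, in which an insulin promoter drives Cre recombinase and Cre removes floxed Ogt. The 5 control (WT) libraries carried no Cre, and were Ogt f/+ in WT replicates 1 and 3 and Ogt f/f in WT replicates 2, 4 and 5. Because the floxed allele was present in all libraries and Cre in the KO libraries alone, an effect of Cre and an effect of losing Ogt cannot be told apart.

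Nuclear pores are the channels through which proteins and RNA cross the nuclear envelope. A scaffold of outer and inner rings is held in the membrane by transmembrane nucleoporins, and it carries nucleoporins whose long disordered stretches of phenylalanine-glycine (FG) repeats fill the channel and bind transport receptors. Filaments reach from it into the cytoplasm and a basket into the nucleus. Nucleoporins with FG repeats are among the most heavily modified targets of O-GlcNAc transferase, the enzyme that Ogt encodes, which places single N-acetylglucosamine residues on serine and threonine. The data describe RNA and hold no measurement of that modification or of the pore itself.

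The libraries came from 2 sequencing runs, 3 WT and 2 KO in run 1 and 2 WT and 2 KO in run 3, with total counts of 3796043 to 6073537 per library. The later run is named run 3 in one label and the second run in another, and is called run 3 here. Replicate numbers follow accession order and only name libraries. The ribosomal RNA precursor Rn45s took 28.5% of counts in WT replicate 2 and 24.3% in WT replicate 5, against 9.62% to 19.4% in the other libraries, and 14485 to 15136 genes were detected per library in run 1, against 20069 to 21067 in run 3. Ogt stood at 54.1 to 83.0 CPM (counts scaled to library size) in WT and at 23.7 to 39.3 CPM in KO libraries, a log2 fold change of −1.30 ± 0.14 (SE, edgeR adjusted p = 2.44e-05). Summed acinar marker levels were 2311 to 5704 CPM in WT and 399 to 1995 CPM in KO libraries of run 1, and 111 to 129 CPM in WT and 76.1 to 202 CPM in KO libraries of run 3, and 0 of the 12 markers were at 0 throughout. Summed beta cell markers, 10 genes, lay between 64012 and 110232 CPM in WT and between 55843 and 83074 CPM in KO libraries of run 1, and between 47900 and 54501 CPM in WT and between 42845 and 46675 CPM in KO libraries of run 3. Taken gene by gene, 5 of these 10 were called lower and 0 higher (median −0.43). Of all tested genes, 8.96% were called lower and 9.56% higher. Summed delta and PP cell markers, 5 genes, were higher in KO libraries without overlap within each run. They were at 5291 to 5501 CPM against 3021 to 4021 in run 1 and 3898 to 4792 CPM against 2975 to 3042 in run 3. Of all tested genes taken singly, 11.9% were higher in this way. Of the 5 markers, 2 were called higher. Fibroblast and stellate markers had positive estimates for 5 of 5 tested genes, with 1 called (median 0.56). Whether these shifts bear on the pore genes was not tested, apart from the acinar covariate. In RNA from whole islets, fewer cells of a type and less RNA per cell cannot be told apart.

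The promoters of Nup62, Nup133 and Nup214 are shown first, because these genes had the lowest adjusted p-values among the nucleoporins that rose and fell. Each sequence is the 250 bases before the RefSeq start site on the GRCm38.p6 build, read 5′ to 3′ on the strand of the gene, and capitals mark 3 kinds of motif found on either strand. These are TGACGTCA (the CRE, bound by CREB and ATF family factors), the NRF1 motif and CCAAT. Nup62 lies at chr7:44815838-44816087 on the plus strand, Nup133 at chr8:123949266-123949515 on the minus strand and Nup214 at chr2:31974200-31974449 on the plus strand.
Nup62: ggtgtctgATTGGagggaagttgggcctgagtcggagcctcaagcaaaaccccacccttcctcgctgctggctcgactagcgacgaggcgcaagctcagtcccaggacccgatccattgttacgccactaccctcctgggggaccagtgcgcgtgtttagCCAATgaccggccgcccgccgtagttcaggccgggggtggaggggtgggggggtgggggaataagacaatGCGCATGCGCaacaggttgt
Nup133: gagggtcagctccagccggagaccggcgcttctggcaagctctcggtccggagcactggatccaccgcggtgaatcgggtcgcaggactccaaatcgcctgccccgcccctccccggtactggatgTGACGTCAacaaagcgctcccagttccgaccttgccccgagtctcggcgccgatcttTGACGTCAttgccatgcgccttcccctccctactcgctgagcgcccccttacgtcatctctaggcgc
Nup214: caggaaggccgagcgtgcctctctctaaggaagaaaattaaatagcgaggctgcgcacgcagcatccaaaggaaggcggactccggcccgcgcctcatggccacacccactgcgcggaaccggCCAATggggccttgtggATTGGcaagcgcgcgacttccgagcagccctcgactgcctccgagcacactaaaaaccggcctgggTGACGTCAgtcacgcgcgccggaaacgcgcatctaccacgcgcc
The Nup133 promoter held the CRE letters at 124 and 67 bases before the start, and the Nup214 promoter held them at 44 bases before it, so a gene that rose and a gene that fell both carried them. In the Nup62 promoter the NRF1 letters, which match on both strands at the same place, began 20 bases before the start. RefSeq windows of 300 bases, which run to 50 bases after the start, were matched for 25 of the 29 genes, 28 windows in all. The CRE letters stood in 3 of these 28 windows (10.7%), against 1.79% of 32851 windows of all genes, and the third was that of Nupl2. The NRF1 letters stood in 4 windows (14.3%, against 4.6% of all windows), CCAAT in 12 (42.9%, against 37.4%), the ETS core CCGGAAG in 8 (28.6%, against 8.86%), the GC box GGGCGG in 18 (64.3%, against 35.7%) and TATAAA in 3 (10.7%, against 13.6%). The median GC content was 63.8% in the nucleoporin windows and 52.7% in all windows, and its part in these shares was not tested. The 7 genes that rose or fell had 9 windows. The ETS letters stood in 0 of these, the CRE, NRF1 and TATAAA letters in 2 each, and CCAAT and the GC box in 6 each. These windows are few, and a link between motifs and change was not tested.

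The levels of the nucleoporin genes were compared with each other per length, in the authors' FPKM. Mean FPKM over the 9 libraries ranged 39.3-fold, from 56.2 ± 7.64 (SD) for Tpr, the coiled-coil protein of the nuclear basket, to 1.43 ± 0.474 (SD) for Ndc1, a transmembrane nucleoporin. Ranbp2, the large cytoplasmic filament protein that binds Ran, came next at 42.4 ± 3.41 (SD), followed by Nup98 at 32.6 ± 6.46 (SD), Nup88 at 31.2 ± 2.49 (SD), Seh1l at 23.8 ± 2.52 (SD) and Nup50 at 21.0 ± 2.86 (SD). The lowest levels after Ndc1 were those of Nupl2 (1.84 ± 0.439, SD), the inner ring gene Nup35 (2.23 ± 1.69, SD), and the outer ring genes Nup43 (2.47 ± 1.28, SD) and Nup37 (2.72 ± 1.77, SD). These means pool both runs, and Nup35 held its rank in neither: it was at 0.776 to 1.31 FPKM in run 1, below Nupl2 in all 5 libraries, and at 2.31 to 5.55 FPKM in run 3, above Nupl2 in all 4. In 24 of the 28 steps of this order, neighbours were closer than the larger of their SDs, and the 4 clear steps were those after Tpr, Ranbp2, Nup88 and Nup50. Genes of the same assembly could lie far apart: in the outer ring, Seh1l was at 23.8 FPKM and Nup107 at 6.12 ± 0.495 (SD), against 2.47 for Nup43.

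**Figure D1:**
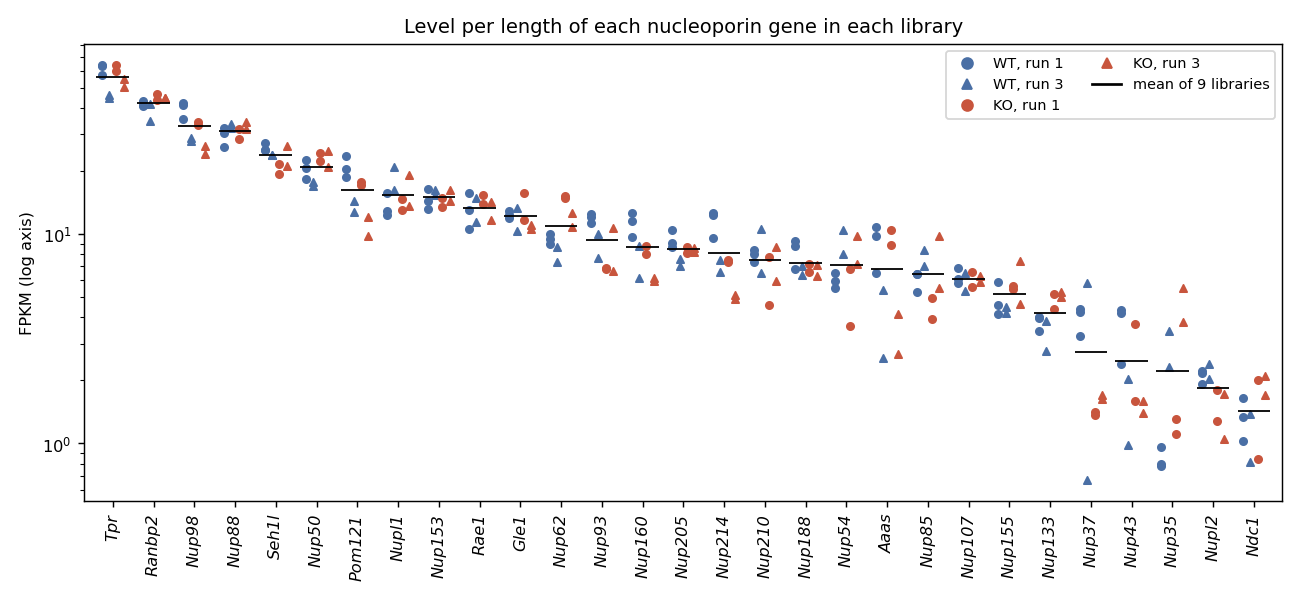
FPKM of each of the 29 nucleoporin genes (log axis) in each of 9 libraries, ordered by the mean (black line), with colour for genotype and symbol for run. Tpr and Ranbp2 stand highest, and Nup37, Nup43 and Nup35 at the right, below 3 FPKM on average, spread widely between libraries.

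In KO islets 3 nucleoporin genes rose, 4 fell and 22 were not called. Nup62, Nup133 and Nup50 rose, and Nup214, Nup93, Nup160 and Nup98 fell, by between 0.24 and 0.58 on the log2 scale. Called means an adjusted p under 0.05 in edgeR's quasi-likelihood test over 12501 genes, with sequencing run as a term. The called share was 24.1% of the 29, against 18.5% of all tested genes (9.56% higher and 8.96% lower), so it was near the background. The median log2 fold change of the nucleoporin genes was −0.04, against 0.02 for all genes, and the median size of a change, without its sign, was 0.25 against 0.23. With the run term left out, edgeR called 0 of the 29 and 672 genes in all. Nup62, Nup133 and Nup214 were the 3 genes still called with the f/f controls alone. The same 3 were called with an acinar covariate, the mean log2 CPM of the 11 acinar markers that passed the filter. On log2 FPKM, limma called Nup62 and Nup214. No label states that each library of a group is a separate mouse, and the p-values rest on how far single libraries scatter, and that scatter may be technical.

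**Figure D2:**
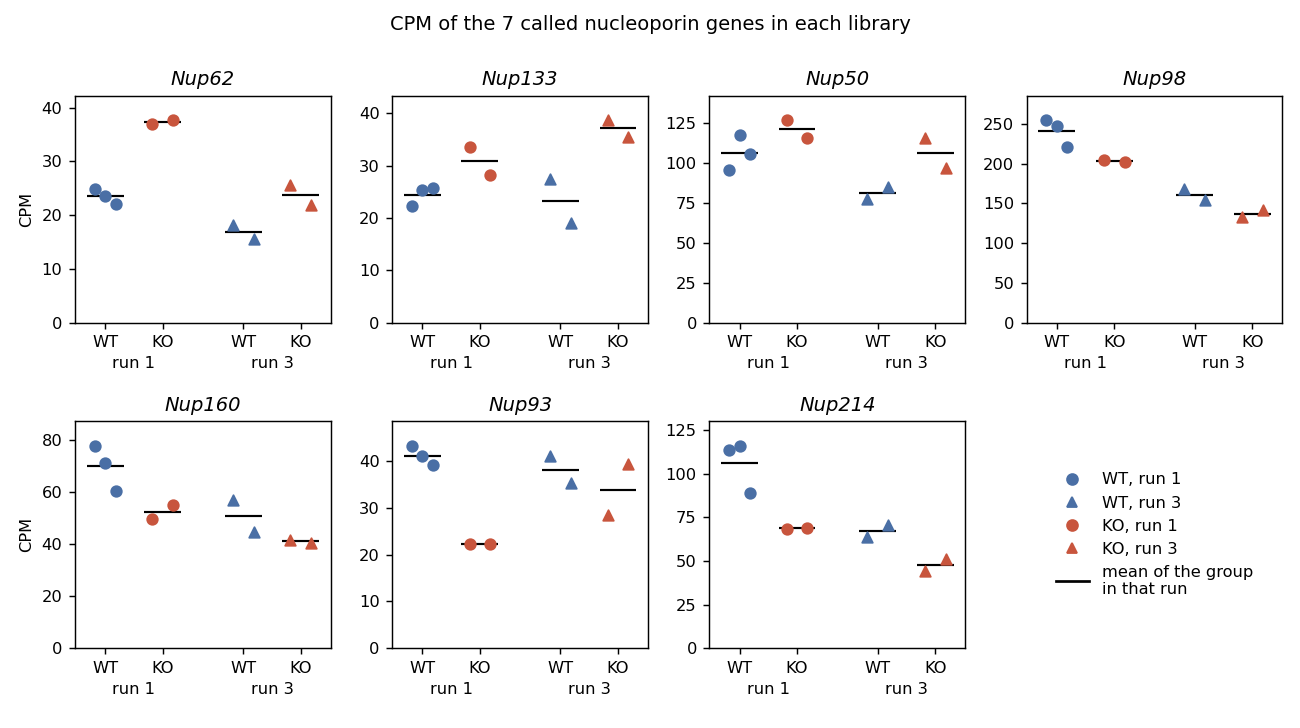
CPM of the 7 called genes in each library, each axis from 0, with WT and KO libraries of run 1 (circles) and run 3 (triangles) and a black line at the mean of each group within its run. KO points lie apart from WT points within both runs in 5 of the 7 genes, and overlap within 1 run for Nup50 and Nup93.

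Nup62 is the FG nucleoporin of the central channel, a classic O-GlcNAc carrier that pairs there with the products of Nup54 and Nupl1. In WT replicates 1 to 5 its CPM was 24.9, 23.6, 22.1, 18.2 and 15.5, against 37.0, 37.7, 25.6 and 21.9 in KO replicates 1 to 4. Within each run all KO libraries were above all WT libraries, while KO replicate 4 of run 3 lay below WT libraries of run 1. Its log2 fold change was 0.58 ± 0.12 (SE, edgeR adjusted p = 0.00345), and 0.65 within run 1 and 0.48 within run 3. The exact two-sided permutation p, with labels exchanged inside each run, was 0.0167, and no lower value exists among 60 arrangements. The other channel genes were not called, at −0.16 ± 0.15 (SE) for Nup54 and −0.11 ± 0.12 (SE) for Nupl1. Nupl1 shares 12568 bases of its locus, on the same strand, with Atp8a2, so its counts are uncertain.

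The gene Nup62 occupies chromosome 7, 44816088 to 44830812, plus strand, on GRCm38 (mm10), and its first 571 bases overlap the 5′ end of Atf5 on the other strand. Atf5, a transcription factor of the stress response, went the other way, from a mean of 162 CPM in the controls to 80.5 CPM, and fell by 0.96 on the log2 scale (edgeR adjusted p = 3.94e-06). Atf5 lay between 125 and 204 CPM in the WT libraries and between 65.1 and 106 CPM in the KO libraries, without overlap. The sources used here do not state whether the counting used strand, so reads in that overlap could have been given to either gene. Nup62 also shares 14426 bases of its locus, on the same strand, with Il4i1, which held 2 counts in all, against 1082 for Nup62. How reads in that stretch were assigned is not stated, so the counts of Nup62 are uncertain too. A read-through transcript listed as Nup62-il4i1 held 0 counts in the 5 WT libraries and between 0 and 4 counts in the KO libraries.

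Nup133, a scaffold protein of the outer ring or Y complex (chromosome 8, 123897123 to 123949265, minus strand), also rose. Its CPM values were 22.2, 25.3, 25.6, 27.4 and 19.1 in WT replicates 1 to 5, against 33.5, 28.2, 38.7 and 35.5 in KO replicates 1 to 4. Every KO library was above every WT library across both runs, which held for no other nucleoporin gene and for 11.1% of all tested genes in either direction. The log2 fold change was 0.50 ± 0.14 (SE, edgeR adjusted p = 0.017) (0.33 within run 1, 0.66 within run 3, exact permutation p = 0.0167). The call was lost without WT replicate 5 (0.37), KO replicate 1 (0.49) or KO replicate 3 (0.45).

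Nup160, another scaffold protein of the Y complex (chromosome 2, 90677215 to 90736328, plus strand), fell. In WT replicates 1 to 5 its CPM was 77.9, 71.2, 60.7, 57.1 and 44.6, against 49.9, 55.3, 41.7 and 40.5 in KO replicates 1 to 4. KO libraries were below WT libraries within each run, and the runs overlapped. Its log2 fold change was −0.36 ± 0.11 (SE, edgeR adjusted p = 0.0269) (−0.43 within run 1, −0.32 within run 3). The call was lost without WT replicates 1 (−0.32), 2 (−0.35) or 4 (−0.30) and without KO replicates 1 (−0.32), 3 (−0.38) or 4 (−0.37). The FPKM of Nup133 divided by that of Nup160 was 0.274, 0.345, 0.415, 0.436 and 0.451 in WT replicates 1 to 5 and 0.645, 0.498, 0.853 and 0.837 in KO replicates 1 to 4. This ratio, chosen after the values were seen and so given with no test, did not overlap between the genotypes.

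The rest of the outer ring was not called. Nup107, a scaffold partner of Nup133, was at −0.04 ± 0.12 (SE), Nup85 at −0.26 ± 0.17 (SE), and Seh1l, a propeller protein shared with a nutrient-sensing complex, at −0.26 ± 0.10 (SE, adjusted p = 0.0711 in edgeR's test). Seh1l was called without WT replicate 5 (−0.36). Nup37 had the most negative estimate of all 29, −1.03 ± 0.40 (SE), with CPM values of 5.37, 5.18, 3.98, 7.38 and 1.86 in WT replicates 1 to 5, against 1.76, 1.70, 3.16 and 2.64 in KO replicates 1 to 4. It rested on 7 to 49 counts per library, and WT replicate 5 lay among the KO libraries. With all libraries its adjusted p was 0.0885 in edgeR's test, and without WT replicate 5 it was called (−1.42, adjusted p = 0.00971). Nup43, at 8 to 25 counts per library, was at −0.33 ± 0.34 (SE). It shares 11379 bases with Pcmt1 on the other strand, which held 1593 counts in all, against 155 for Nup43. Whether the counting used strand is not stated, so the counts of Nup43 are uncertain too. The outer ring thus held 1 rise, 1 fall and 5 genes without a call, and a median of −0.26 (−0.45 within run 1, −0.12 within run 3). Not counted here is Nup98, which fell (−0.24 ± 0.07, SE) and whose gene also encodes the outer ring protein Nup96.

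In the inner ring, Nup93, the adaptor that links the other inner ring proteins (chromosome 8, 94214564 to 94317227, plus strand), fell. Its CPM values were 43.2, 41.1, 39.0, 41.0 and 35.3 in WT replicates 1 to 5, against 22.2, 22.2, 28.4 and 39.3 in KO replicates 1 to 4. In run 1 the genotypes were far apart, and in run 3 KO replicate 4 lay between the WT libraries. The log2 fold change was −0.52 ± 0.15 (SE, edgeR adjusted p = 0.0246), with −0.91 in run 1 (adjusted p = 0.00941) against −0.18 in run 3 (adjusted p = 0.617). The interaction of genotype and run had an unadjusted p of 0.01 and an edgeR adjusted p of 0.795, so a difference between the runs was not shown. Acinar markers were lower in KO libraries in run 1 alone, where acinar level and genotype cannot be told apart. With acinar level as a covariate the Nup93 call was lost (−0.36, adjusted p = 0.145 in edgeR's test). The calls of Nup50, Nup160 and Nup98 were lost with it too. Nup93 also lost its call without WT replicate 1 (−0.48), KO replicate 1 (−0.43), KO replicate 2 (−0.43) or KO replicate 3 (−0.50), and with replicate 2 of both genotypes removed (−0.42).

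The other inner ring genes were not called. Nup155, a membrane-binding scaffold, was at 0.33 ± 0.13 (SE, adjusted p = 0.0871) and was called without WT replicate 1 (0.41) in edgeR's test. Nup35 was at 0.64 ± 0.26 (SE, adjusted p = 0.0986 in edgeR's test, called by limma-voom at 0.76), with 2.69, 2.27 and 3.98 CPM in WT and 4.03 and 3.65 CPM in KO libraries of run 1, and 11.3 and 6.42 CPM in WT and 14.8 and 16.7 CPM in KO libraries of run 3. Run 3 was above run 1 by 1.79 on the log2 scale. Nup35 also shares 15126 bases of its locus, on the same strand, with Dusp19 (−0.47 ± 0.29, SE, not called), so its counts are uncertain. The large scaffold proteins Nup205 (−0.02 ± 0.09, SE) and Nup188 (−0.15 ± 0.10, SE) completed the ring, which held 0 rises and 1 fall among 5 genes and a median of −0.02.

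Among the genes of the cytoplasmic filaments and the mRNA export platform, Nup214 and Nup98 fell. Nup214, an FG nucleoporin that anchors the mRNA export helicase together with Nup88 (chromosome 2, 31974436 to 32053975, plus strand), had the lowest p of the 29. In WT replicates 1 to 5 its CPM was 113, 116, 89.0, 63.7 and 70.5, against 68.3, 68.9, 44.2 and 50.9 in KO replicates 1 to 4. Within each run all KO libraries were below all WT libraries, and the WT libraries of run 3 lay on either side of the KO libraries of run 1. Its log2 fold change was −0.57 ± 0.10 (SE, edgeR adjusted p = 0.00106) (−0.64 within run 1, −0.50 within run 3, exact permutation p = 0.0167). It was the nucleoporin gene called in each run alone, with adjusted p-values of 0.0261 in run 1 and 0.0293 in run 3. Within run 1, Nup62 (adjusted p = 0.0347) and Nup93 were the other calls, and within run 3 Nup133 (adjusted p = 0.0444), so that 3 and 2 of the 29 were called, against 6.05% and 8.17% of all genes. Within run 1 that was 1 higher (3.13% of all genes) and 2 lower (2.92%), and within run 3 1 higher (3.93%) and 1 lower (4.24%).

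Nup88, the partner of Nup214, was at 0.02 ± 0.09 (SE), with 66.9 to 87.9 CPM in WT and 73.8 to 86.7 CPM in KO libraries. The FPKM ratio of Nup214 to Nup88 was 0.385, 0.412 and 0.365 in WT and 0.231 and 0.263 in KO libraries of run 1, and 0.197 and 0.235 in WT libraries of run 3, where the higher of the KO values was 0.153. Nup62 also binds this pair at the cytoplasmic face of the channel. The FPKM ratio of Nup62 to Nup214 was 0.808, 0.756, 0.937, 1.32 and 0.979 in WT replicates 1 to 5 and 2.02, 2.03, 2.57 and 2.11 in KO replicates 1 to 4. This ratio was about 1 in WT (mean 0.961 ± 0.221, SD, n = 5) and above 2 in every KO library (mean 2.18 ± 0.262, SD, n = 4). The pair was picked after its values were seen, as the strongest rise and fall, so the ratio is a description. Of the other ratios computed in the same way, Nup133 to Nup160, given above, did not overlap between the genotypes either. Nup214 to Nup88, Nup62 to Nup54 and Nup93 to Nup205 overlapped over both runs together. Within each run, Nup214 to Nup88 and Nup62 to Nup54 did not overlap, while Nup93 to Nup205 overlapped in run 3. Nup62 to Nup54 was 0.835 to 1.81 in WT and 1.11 to 4.18 in KO libraries. Nup93 to Nup205 was 1.01 to 1.42 in WT and 0.784 to 1.25 in KO libraries.

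Nup98, an FG nucleoporin whose gene also encodes the outer ring protein Nup96 in the same precursor, is at chromosome 7, 102119398 to 102210176, minus strand. Its CPM values were 255, 248, 220, 168 and 154 in WT replicates 1 to 5, against 205, 202, 132 and 141 in KO replicates 1 to 4. KO libraries were below WT libraries within each run, by −0.24 ± 0.07 on the log2 scale (SE, edgeR adjusted p = 0.0359). The call was lost without WT replicates 1 (−0.22), 2 (−0.23) or 4 (−0.22) and without any of KO replicates 1 (−0.24), 2 (−0.23), 3 (−0.22) or 4 (−0.26), while the estimate hardly moved. Its mRNA export partner Rae1 (0.03 ± 0.14, SE), the export factor Gle1 (0.05 ± 0.12, SE) and Nupl2, which binds Gle1 (−0.33 ± 0.25, SE), were not called. Ranbp2 was at 0.17 ± 0.08 (SE, adjusted p = 0.129 in edgeR's test), with 448, 427 and 432 CPM in WT and 494 and 457 CPM in KO libraries of run 1, and 391 and 326 CPM in WT and 417 and 422 CPM in KO libraries of run 3. Its KO libraries were thus above its WT libraries within each run although it was not called. This group of filament and mRNA export genes held 0 rises and 2 falls among 7 genes. Over all tested genes 9.56% were called higher and 8.96% lower.

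At the nuclear basket Nup50, an FG nucleoporin that helps importins release cargo (chromosome 15, 84923411 to 84942963, plus strand), rose. In WT replicates 1 to 5 its CPM was 95.5, 117, 106, 77.2 and 85.0, against 127, 115, 115 and 96.8 in KO replicates 1 to 4. WT replicate 2 lay between the KO libraries of run 1, and in run 3 the genotypes did not overlap. The log2 fold change was 0.28 ± 0.09 (SE, edgeR adjusted p = 0.0406) (0.18 within run 1, 0.38 within run 3). This call, closest to the threshold, was lost without WT replicates 1 (0.26), 4 (0.24) or 5 (0.27), without KO replicates 1 (0.28), 3 (0.22) or 4 (0.31), with no filter on low counts (0.26) and without the ribosomal RNA precursor Rn45s (0.27). Tpr was at 0.09 ± 0.07 (SE), between 374 and 528 CPM in WT and between 409 and 530 CPM in KO libraries. Nup153, the FG protein that tethers the basket, was at −0.01 ± 0.08 (SE).

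None of the membrane genes was called by edgeR. Pom121, a transmembrane FG nucleoporin, was at −0.24 ± 0.09 (SE, adjusted p = 0.0719) and stood at 135, 121 and 107 CPM in WT and 102 and 105 CPM in KO libraries of run 1, and at 64.8 and 68.9 CPM in WT and 60.6 and 51.5 CPM in KO libraries of run 3. The genotypes did not overlap within runs, and Pom121 was called without WT replicate 3 (−0.28). Nup210, a membrane glycoprotein, was at −0.26 ± 0.14 (SE), Ndc1, the conserved membrane anchor, at 0.25 ± 0.32 (SE) and Aaas, the protein that Ndc1 holds at the pore, at 0.14 ± 0.21 (SE).

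**Figure D3:**
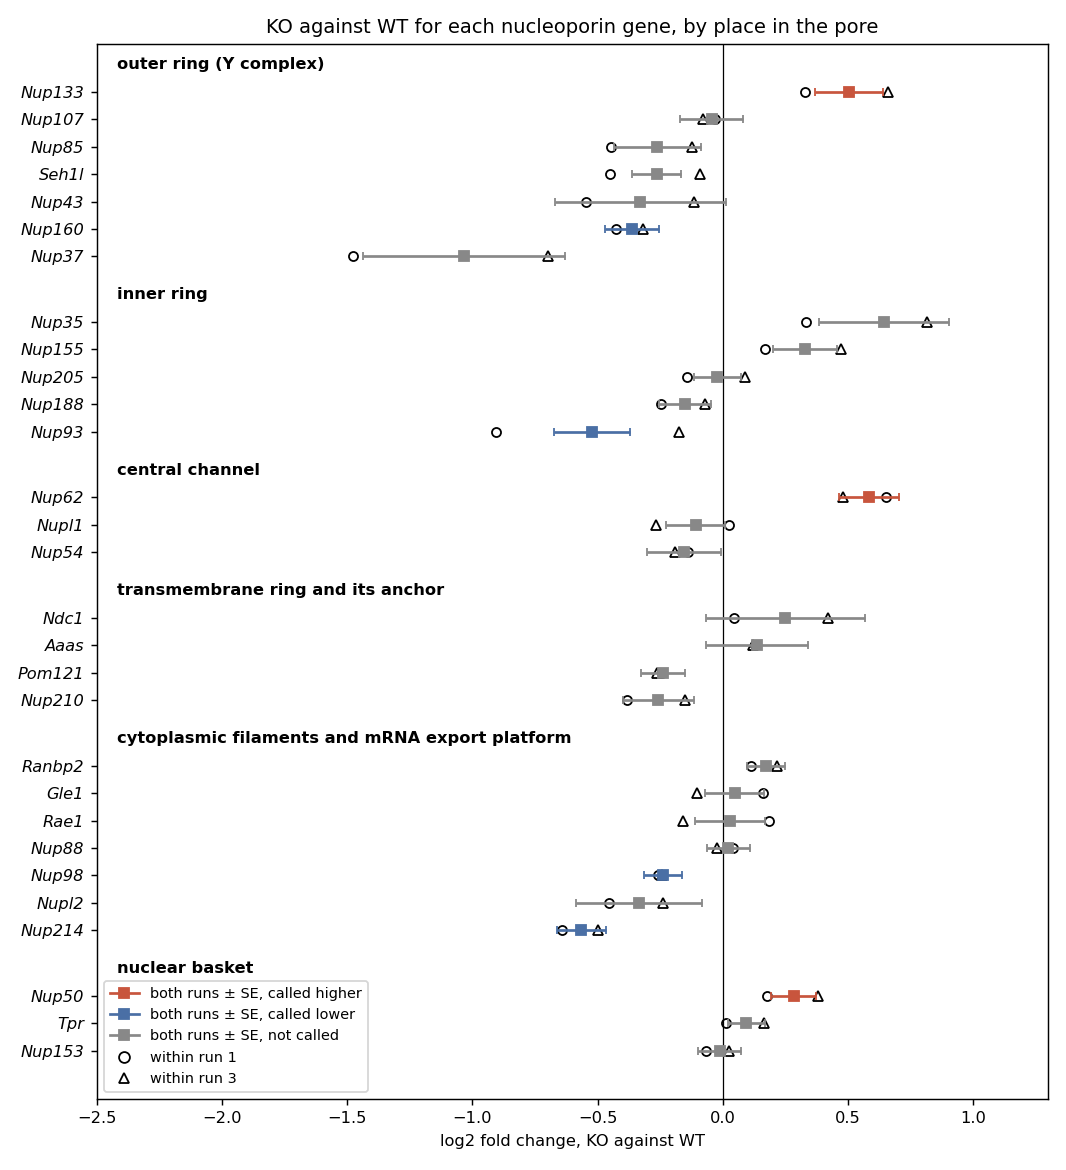
Log2 fold change of each nucleoporin gene, KO against WT, by place in the pore: squares with SE bars for both runs together, open circles for run 1 and open triangles for run 3. Rises and falls stand side by side in the outer ring (Nup133 and Nup160), and Nup37, which was not called, has the widest bar.

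Over all 29 genes, 7 had KO and WT libraries that did not overlap within either run, 3 higher in KO (11.9% of all genes were) and 4 lower (11% of all genes were), 24.1% against 22.9% together. Of the 7 called genes 5 were among these, the exceptions being Nup50 and Nup93. The remaining pair was Ranbp2 and Pom121. Estimates of the 29 genes had the same sign in run 1 and run 3 for 23 genes (79.3%, against 70% of all genes), with Pearson's r of 0.77 and Spearman's rho of 0.74 across the genes, against 0.49 and 0.51 over all genes. Genes are not independent replicates, and each run's 2 KO libraries are shared by all of them. The comparison with all genes was not matched for expression level, so it does not show closer agreement particular to the pore genes. Among the 29 the interaction of genotype and run was called for 0 genes by edgeR, with 1 at an unadjusted p under 0.05 and 0% of all genes called. Between the f/+ and f/f controls edgeR also called 0 of the 29, with 0 at an unadjusted p under 0.05 and 0% of all genes called, and estimates ran from −0.32 (Aaas) to 0.59 (Nup35). Both f/+ libraries were in run 1, beside 1 f/f library, so few libraries bear on this comparison and its lack of calls does not show that the controls were alike.

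**Figure D4:**
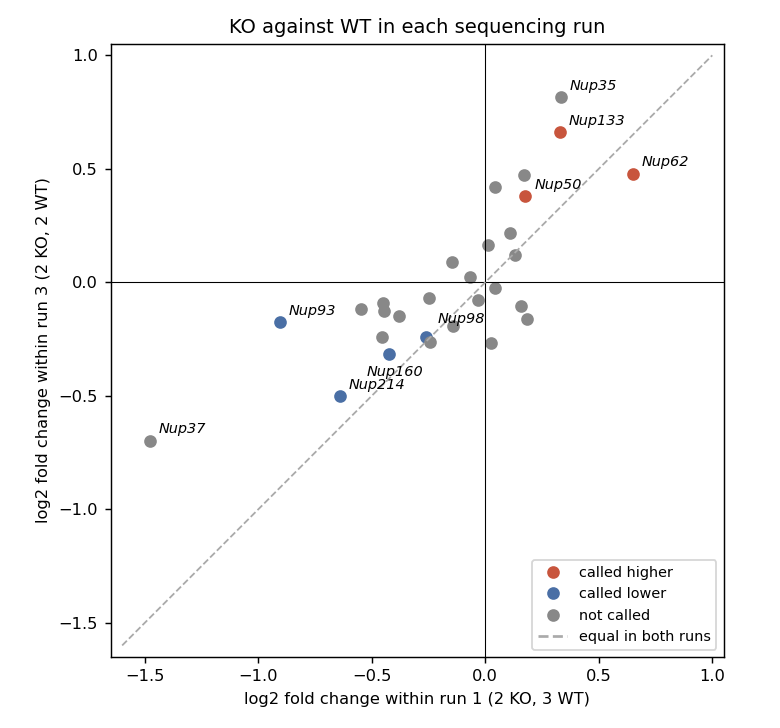
Log2 fold change of each of the 29 genes, KO against WT, within run 1 (x axis) and within run 3 (y axis), from separate libraries, with a dashed line where both are equal. The 7 called genes fall in the quadrants where both runs have the same sign, and Nup93 lies far from the dashed line.

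The runs themselves differed for more nucleoporin genes than the genotypes did. Between run 3 and run 1, 12 of the 29 were called by edgeR (41.4%, against 31.4% of all genes), 3 higher in run 3 (10.3%, against 15.1% of all genes) and 9 lower (31%, against 16.3%). Pom121 differed by −0.87, Aaas by −0.83, Nup214 by −0.60, Nup98 by −0.58 and Nup62 by −0.57, and Nup35 by 1.79 on the log2 scale. The summed level of the 29 genes was 2332 ± 133 CPM in the WT libraries of run 1 (SD, n = 3), where KO libraries had 2246 ± 26.8 (SD, n = 2), and 1901 ± 63.2 CPM in the WT libraries of run 3 (SD, n = 2), where KO libraries had 1979 ± 32.8 (SD, n = 2). The KO mean was thus the lower in run 1 and the higher in run 3. Summed markers of dividing cells, 8 genes, were 41.3 to 235 CPM in WT and 46.6 to 201 CPM in KO libraries of run 1, and 73.6 to 159 CPM in WT and 180 to 224 CPM in KO libraries of run 3. Their part in these results was not tested.

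The 10 FG nucleoporins Nup62, Nup54, Nupl1, Nup98, Nup153, Nup50, Nup214, Ranbp2, Nupl2 and Pom121 were set beside the other 19, a grouping made after the values were seen. Among the 10 were 2 rises (Nup62 and Nup50), 2 falls (Nup214 and Nup98) and 6 without a call, with a median of −0.13. The other 19 held 1 rise, 2 falls and 16 without a call, and a median of −0.02. Over all tested genes 9.56% were called higher and 8.96% lower, the groups are small, and no test of their difference was made.

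The partners of the pore were given by 6 further lists of nuclear transport and envelope genes, in which 6 of 60 tested genes rose and 8 fell (median −0.03), near the 9.56% and 8.96% of all tested genes. Among importins, the receptors that carry cargo inward, 2 of 16 rose and 3 fell. Ipo5 fell by 0.71 (243 ± 51.6 CPM, SD, n = 5, to 142 ± 20.8 CPM, SD, n = 4), Ipo7 fell by 0.51 and Kpnb1, importin beta, which is the main import receptor, fell by 0.42, while Tnpo3, which imports splicing factors, rose by 0.39. Adjusted p-values of these 4 lay between 7.82e-05 and 0.00348 in edgeR's test. Of 7 exportins 1 was called, Xpot, the exportin of transfer RNA, which fell by 0.65 (169 ± 14.4 CPM, SD, n = 5, to 108 ± 7.47 CPM, SD, n = 4). Exportin estimates were positive for 0 of the 7 (median −0.18), against 6495 of the 12501 tested genes. In the Ran cycle, 1 of 6 rose, Rangap1, which turns Ran to its GDP form at the pore (0.26 ± 0.08, SE, adjusted p = 0.0363 in edgeR's test). Rangap1 lost its call under 13 of 23 alternatives, among them leaving out WT replicates 1 (0.25), 2 (0.26), 4 (0.26) or 5 (0.21) or KO replicates 1 (0.24), 3 (0.25) or 4 (0.24). Ipo5, Ipo7, Tnpo3 and Xpot kept theirs under all 23, and Kpnb1 lost it without the run term alone (−0.47).

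Of 16 mRNA export factors 2 rose and 1 fell. Thoc3, a subunit of the THO complex, rose by 0.77 (17.2 ± 2.78 CPM, SD, n = 5, to 29.7 ± 3.96 CPM, SD, n = 4) and Pcid2, of the TREX-2 complex at the pore, by 0.62, while Nxt2, a cofactor of the export receptor, fell by 0.64. In the lamina and inner membrane list 1 of 12 rose and 3 fell. Sun1, which links the lamina to the cytoskeleton and lies close to pores, fell by 0.61 (113 ± 8.82 CPM, SD, n = 5, to 74.4 ± 5.65 CPM, SD, n = 4), Sun2 fell by 0.53 and the inner membrane protein emerin, Emd, fell by 0.47, whereas Syne1, the giant nesprin, rose by 0.29. Emd lost its call under 14 of 23 alternatives, including the removal of WT replicates 1 (−0.42), 2 (−0.46) or 5 (−0.42) or of KO replicates 1 (−0.49), 2 (−0.47), 3 (−0.44) or 4 (−0.50). Sun2 lost it under 11, including the removal of WT replicates 1 (−0.52), 2 (−0.51) or 5 (−0.37) or of KO replicates 1 (−0.50), 3 (−0.52) or 4 (−0.44), and Syne1 under 11, including WT replicate 4 (0.28) and KO replicates 2 (0.24) or 3 (0.29). Thoc3, Pcid2 and Sun1 kept their calls under all 23, and Nxt2 lost it without the run term alone (−0.59). The nucleoporins not covered by the symbol rule, of which 3 were tested, were not called: Ahctf1, the chromatin anchor ELYS, was at −0.15 ± 0.09 (SE), and Sec13, shared with transport vesicles, at 0.08 ± 0.11 (SE).

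**Figure D5:**
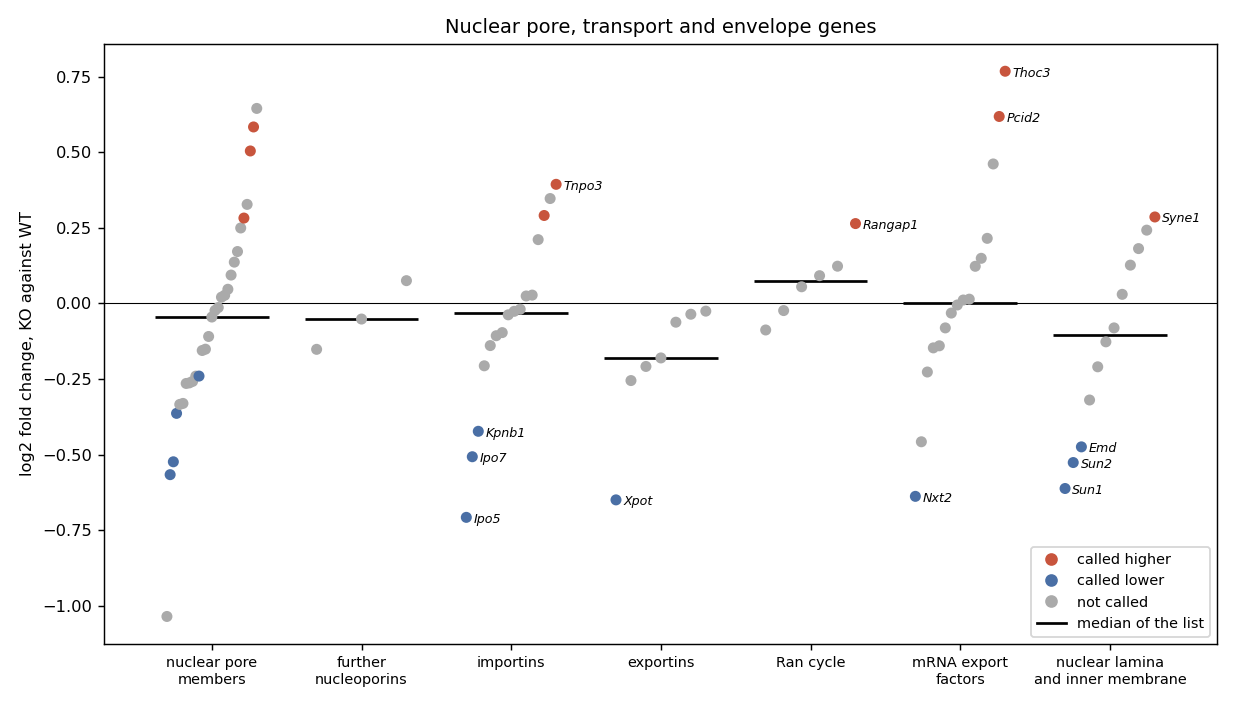
Log2 fold change, KO against WT, of the 29 nucleoporin genes and of 6 lists of transport and envelope genes, with called genes in colour, up to 4 called genes of each transport or envelope list named and a line at each list's median. Ipo5, Xpot, Nxt2 and Sun1 lie lowest outside the pore genes and Thoc3 and Pcid2 highest.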

How the data were processed

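Islet RNA was sequenced with a stranded low-input total RNA kit, per the labels' protocols. The authors deposited read counts (24420 symbols) and FPKM values (24347 symbols), 1 column per library. Bowtie2 2.2.4.0, Cuffdiff 2.2.1, edgeR, FastQC and mm10 are named without roles, per the submitters' processing notes, and the counter, its use of strand and its treatment of reads with several matches are not given in the sources used here. Left out were 27 symbols turned into dates (0.133% to 0.186% of counts). The main test was edgeR 4.0.16 (R 4.3.3), quasi-likelihood, TMM, default filter, with run and genotype as terms and Benjamini-Hochberg adjustment over 12501 genes. CPM use TMM-scaled library sizes, SEs come from the fold change and its F, and permutations used log2 CPM with a prior count of 2. The test was checked on simulated counts. Replicate pairs differed by 3.73 to 64.2 chi-square per degree of freedom over counting noise, so none was counted as a duplicate. The lowest value was that of KO replicates 3 and 4, the KO pair of run 3. The next lowest was 10.5, and the WT pair of run 3 was at 36.4. The highest was that of WT replicates 2 and 4, from different runs. Coordinates are from GENCODE M21 (GRCm38), which held all 29 symbols, and promoters from RefSeq. The genes named are all 29, Ogt, up to 4 called genes of each transport or envelope list, or 2 where none was called, and Atf5, added after its values were seen. The 29 genes and all lists were chosen with earlier results of these data known. Alternatives were DESeq2 1.42.0, limma-voom and limma 3.58.1 on log2(FPKM + 0.1) or log2(FPKM + 1), other scaling, filters, covariates and libraries left out.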

Additional observations from a re-analysis of the deposited data

Results flagged for a closer look

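Nup155 in the WT group had 1 library apart from the others. WT replicate 1 stood at 41.0 CPM, against 29.2 to 32.4 CPM in the other 4 WT libraries, and the gap took 0.732 of the range of the 5 values. Of 58 groups examined (29 genes, WT and KO) this was the 1 set apart by Dixon's test, which chance does in about 1 in 20 groups. Without that library Nup155 was called higher in KO (log2 fold change 0.41, adjusted p = 0.032 in edgeR's test).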

How the results depend on the processing

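Direction held for each of the 7 called genes under all 23 alternatives. Nup62 and Nup214 lost their call under 1 of them, the model without the run term (0.55 and −0.64), and the 7 genes together lost 64 of 161 calls. The 3 rises and 4 falls became 0 and 0 without the run term, 1 and 1 with limma on FPKM (both pseudocounts, and with no FPKM filter), and 2 and 1 both with the f/f controls alone and with the acinar level as a covariate. With libraries left out (singly, or WT replicates 2 and 5 together for their Rn45s share), rises ran from 1 to 3 and falls from 1 to 6, and removing replicate 2 of both genotypes, chosen after seeing the data, gave 1 fall. DESeq2 and RLE factors called the same 7 genes. The median of the 29 lay between −0.11 and −0.02. The cause was not tested, except that leaving out libraries leaves fewer samples. Of the uncalled genes, 7 changed sign under some setting. With the f/f controls alone Nup205 was at 0.049, Nup88 at −0.0041 and Rae1 at −0.013. With the acinar covariate Gle1 was at −0.088, Nup205 at 0.019 and Rae1 at −0.13. On FPKM with pseudocounts of 0.1 (with and without a filter) and 1, Aaas was at −0.0029 and −0.00036, Nup107 at 0.00062 and 0.00023, and Nup205 at 0.0033 and 0.0018. With libraries left out, Aaas ran from −0.0040 to 0.26, Gle1 from −0.086 to 0.14 (−0.034 without WT replicates 2 and 5), Nup107 from −0.10 to 0.0036, Nup153 from −0.052 to 0.033, Nup205 from −0.061 to 0.031, Nup88 from −0.026 to 0.051 and Rae1 from −0.054 to 0.12. Depth limits Nup37, Nup43, Ndc1, Nupl2, Aaas and Nup35, with at most 114 counts in a library. No paired analysis was possible because the labels give no replicate numbers, and those used here are in accession order.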
